A study of Mus musculus with 2 samples.

Results

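EF-hand calcium buffers and neuronal calcium sensors are 10 genes here: Calb1, Calb2, Pvalb, Vsnl1, Hpca, Hpcal1, Hpcal4, Ncald, Ncs1 and Necab1. They were taken by symbol from 42462 annotated genes of the deposited gene tables, by a rule that uses no measured value, although earlier results of these data were known when they were picked. All 10 were found. The samples were 2 laser-captured areas of the granule layer of the cerebellum of adult male wild-type tissue of the B6NCrl mouse strain, aged 8 months, and they form 1 group with no treatment. Each area covered 18000 square microns and was entered as 50 cells of starting material. Total RNA was converted with a Smart-seq protocol, which amplifies full-length cDNA from few cells, and the assay label reads single cell although a library holds RNA of an area. Both libraries carry 1 donor label and are numbered biological replicates 1 and 2, so the spread between them may be technical, and it is not stated whether 1 or 2 animals were used.

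The EF hand is a helix-loop-helix fold whose loop holds a calcium ion. Calbindin (Calb1), calretinin (Calb2) and parvalbumin (Pvalb) are mainly buffers, which limit the size and duration of calcium signals. The neuronal calcium sensors change shape on binding calcium and act on membranes, enzymes and channels. In the cerebellum, calbindin is a classical marker of Purkinje cells, calretinin is found in granule cells and unipolar brush cells, and parvalbumin is found in Purkinje cells and molecular layer interneurons. An area of tissue mixes cell types, so a level here belongs to the area, and fewer cells of a type cannot be told apart from less RNA per cell.

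The calcium-binding loops are shown because they are the part that defines the family, and they let the sensors be compared base by base. A standard pattern for the EF-hand loop, 12 codons or 36 bases long, was searched in each translated coding sequence of GENCODE M21. It found 3 loops in each of Vsnl1, Hpca, Hpcal1, Hpcal4, Ncald and Ncs1, 4 in Calb1, 5 in Calb2, 2 in Pvalb and 1 in Necab1. All 6 of the 3-loop genes had a glycine codon directly after the start codon, the position at which this family is known to be myristoylated. Loop 2 covers codons 109 to 120 in all 6 genes and lies within 1 exon of each. It is shown on the coding strand, 5′ to 3′, with capitals where a base differs from Hpcal1.
Hpcal1: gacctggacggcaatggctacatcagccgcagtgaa
Hpca: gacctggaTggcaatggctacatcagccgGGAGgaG
Ncald: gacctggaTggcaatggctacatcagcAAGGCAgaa
Ncs1: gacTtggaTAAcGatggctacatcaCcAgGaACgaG
Vsnl1: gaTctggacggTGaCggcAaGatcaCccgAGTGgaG
Hpcal4: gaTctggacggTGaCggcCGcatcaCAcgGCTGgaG
These are reference sequences on GRCm38. The Hpcal1 loop lies at chr12:17786495-17786530 on the plus strand, Hpca at chr4:129118382-129118417 on the minus strand, and Ncald at chr15:37397075-37397110 on the minus strand. The Ncs1 loop lies at chr2:31284164-31284199 on the plus strand, Vsnl1 at chr12:11332019-11332054 on the minus strand, and Hpcal4 at chr4:123189187-123189222 on the plus strand. From Hpcal1 the loop differed at 6 bases in Hpca, 7 in Ncald, 11 in Ncs1, 12 in Vsnl1 and 13 in Hpcal4.

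For the buffers, 1 loop of each is shown as an example: loop 2 of Calb1 (codons 111 to 122), loop 3 of Calb2 (codons 120 to 131) and loop 1 of Pvalb (codons 52 to 63). Each lies within 1 exon, as do some of the loops not shown. Capitals mark bases that differ from Calb1.
Calb1: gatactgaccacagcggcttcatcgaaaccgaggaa
Calb2: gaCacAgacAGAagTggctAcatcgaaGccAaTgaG
Pvalb: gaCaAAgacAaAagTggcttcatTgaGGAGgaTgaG
The Calb1 loop lies at chr4:15895644-15895679 on the plus strand, Calb2 at chr8:110149362-110149397 on the minus strand, and Pvalb at chr15:78202526-78202561 on the minus strand. Calb2 differed from Calb1 at 11 bases and Pvalb at 13.

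Over whole coding sequences, the closest pair was Hpca and Hpcal1, at 86.0% identical positions in a global alignment, with a longest shared run of 38 bases. Vsnl1 and Hpcal4 followed at 82.4%, Hpcal1 and Ncald at 80.1% and Hpca and Ncald at 79.3%. The longest shared run of these pairs was 46 bases, between Hpca and Ncald. Ncs1 was at 63.1% to 64.8% with the other sensors of 3 loops. The calbindin pair Calb1 and Calb2 reached 62.7%, with no shared run over 12 bases. Hpcal1 and Hpca, the most alike pair, stood in places 2 and 10 of the order by level described next.

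**Figure D1:**
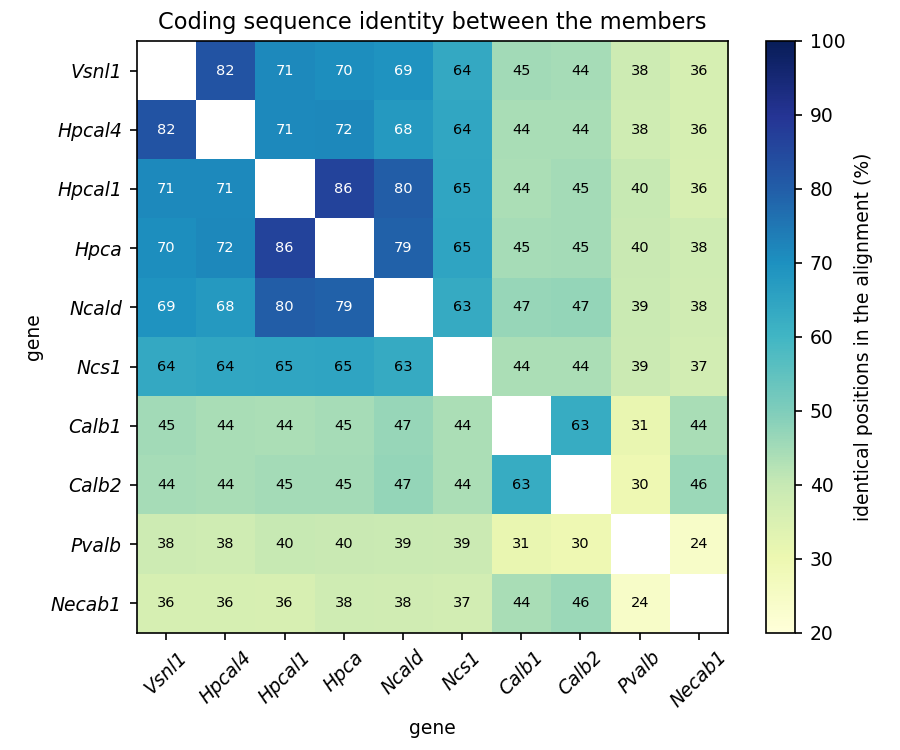
Percent of identical positions in global alignments of the coding sequences of the 10 genes, with genes on both axes and the value printed in each cell. The visinin-like genes Vsnl1, Hpcal4, Hpcal1, Hpca and Ncald form the dark block, Ncs1 stands at 63.1% to 64.8% with them, and Calb1 and Calb2 pair at 62.7%.

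All 10 genes were detected in both areas, where detection means at least 1 TPM (a share of all transcripts, corrected for length) and an expected count (the authors' estimate of reads per gene) of at least 5. Among nuclear protein-coding genes, 10804 of 21461 (50.3%) met the same rule. The genes covered a wide range: the highest mean level was 225 times the lowest. Their median was 27.6 TPM, against 14.3 TPM over the detected nuclear protein-coding genes and 1.41 TPM over all of them. Replicate 1 held 1.99e+07 expected counts on annotated genes and replicate 2 held 1.92e+07. A count of 0 would allow up to 3 counts in a library, or 0.151 and 0.156 CPM (counts per 1e+06), for counting error only.

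Vsnl1, Hpcal1 and Ncald, all of the visinin-like branch of the sensors, held 84.6% of the summed level of the 10 genes, and Vsnl1 alone held 47.2%. Vsnl1 encodes visinin-like protein 1, a sensor that moves to membranes on binding calcium (ENSMUSG00000054459.6, GRCm38 chr12:11325242-11436613, minus strand). It was at 374.74 TPM in replicate 1 and 488.71 TPM in replicate 2, from 11783 and 14939 counts. This placed it 222nd among nuclear protein-coding genes by mean level, above 97.9% of the detected ones. Hpcal1, which encodes hippocalcin-like protein 1 (ENSMUSG00000071379.1, chr12:17690856-17791933, plus strand), was at 164.46 and 212.77 TPM, from 4120 and 5182 counts. Ncald, which encodes neurocalcin delta, a sensor known to bind membranes and clathrin (ENSMUSG00000051359.10, chr15:37366175-37792570, minus strand), was at 140.03 and 168.30 TPM. All 3 were higher in replicate 2. Hpcal1 was above Ncald within each library, but their values overlapped across libraries, as the lower Hpcal1 value of 164.46 TPM lies below the higher Ncald value of 168.30 TPM.

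The remaining visinin-like genes were at the bottom of the range. Hpcal4, which encodes visinin-like protein 2 (ENSMUSG00000046093.5, chr4:123183227-123194701, plus strand), was at 3.27 TPM in replicate 1 and 2.44 TPM in replicate 2, from 271 and 192 counts. Hpca, which encodes hippocalcin, a sensor best known from hippocampal pyramidal neurons (ENSMUSG00000028785.8, chr4:129111570-129122036, minus strand), was at 2.05 and 1.79 TPM, from 52 and 31 counts. Hpca is the member with the least depth, and only 5.62% of detected nuclear protein-coding genes lay below it. Its close relative Hpcal1 was at 189 ± 34.2 TPM (SD, n = 2).

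Ncs1 encodes neuronal calcium sensor 1, the family member found from yeast to mammals, with known actions on a phosphatidylinositol 4-kinase and on receptors (ENSMUSG00000062661.6, chr2:31245823-31295989, plus strand). It was at 23.85 and 21.92 TPM, from 1861 and 1663 counts, a mean of 22.9 ± 1.36 TPM. Necab1 encodes a neuronal protein with an EF hand at its N-terminal end and an antibiotic biosynthesis monooxygenase domain (ENSMUSG00000040536.11, chr4:14952245-15149794, minus strand). It was at 13.19 TPM in replicate 1 and 7.99 TPM in replicate 2, from 782 and 580 counts. Of the sensors, Ncs1 stood between the high and the low visinin-like genes in both areas.

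Among the buffers, Calb2 was the highest, Pvalb next and Calb1 the lowest, in both libraries. Calb2 (ENSMUSG00000003657.8, chr8:110137502-110168210, minus strand) was at 49.68 TPM in replicate 1 and 76.13 TPM in replicate 2, from 1133 and 1688 counts. Pvalb (ENSMUSG00000005716.12, chr15:78191114-78206400, minus strand) was at 33.10 and 31.72 TPM, from 498 and 464 counts. Calb1 (ENSMUSG00000028222.2, chr4:15881264-15908064, plus strand) was at 6.83 and 7.89 TPM, from 313 and 373 counts. No value of 1 buffer overlapped a value of another. The mean of Calb2 was 1.94 times that of Pvalb.

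**Figure D2:**
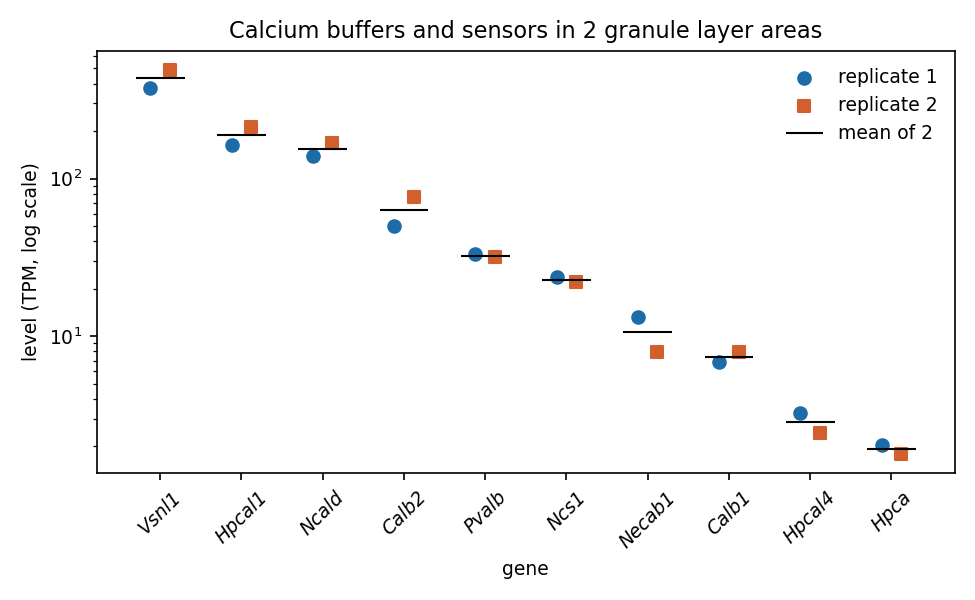
Level of each gene in TPM on a log axis, in order of the mean, with a circle for replicate 1, a square for replicate 2 and a line for the mean of both. Values run from 1.79 TPM for Hpca in replicate 2 to 488.71 TPM for Vsnl1 in replicate 2, and Hpcal1 and Ncald are the neighbours whose values overlap.

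In the order of the means, 8 of the 9 neighbouring pairs did not overlap between libraries, and Hpcal1 with Ncald was the exception. Necab1 and Calb1 were separated only narrowly, by 7.99 TPM against 7.89 TPM, and the difference of their means was 0.878 of the larger SD. Each library alone gave all 45 gene pairs in the same order. CPM, which is not per length, gave 42 of the 45 pairs in that order. The pairs that turned involved Ncs1 and Necab1, whose transcripts are long: Ncs1 moved above Calb2 and Pvalb, and Necab1 above Pvalb.

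Nearly identical genes can share reads, and this was checked through the posterior SD of the count that the tables give. It was 0 in both libraries for 8 of the 10 genes, including the close pair Hpca and Hpcal1. The exceptions were Ncald, at 16.1 and 15.2 counts, or 0.356% and 0.321% of its count, and Necab1, at 2.65 and 2.98 counts. The antisense gene Gm28221 (chr15:37367205-37368498), opposite the 3′ UTR of Ncald, had the same posterior SD as Ncald in each library. Gm28221 held 338.92 and 348.20 counts, equal to 7.48% and 7.36% of the Ncald count, and 79.75 and 84.28 TPM. Whether counting used strand is not given in the sources used here, so reads of Ncald and Gm28221 in the stretch they share cannot be told apart. Necab1 had the same posterior SD as its antisense neighbour Gm11837, which held 7.94 and 0 counts. Tmem54, which overlaps Hpca by its end on the other strand, held 0 and 5 counts.

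The level of a gene is summed over its transcripts, and for 6 of the 10 genes 1 transcript held at least 90% of it. Vsnl1, Hpcal1 and Calb2 have 1 annotated transcript each. All Pvalb counts were given to Pvalb-201 and none to Pvalb-202, which starts further upstream and has the same coding sequence. All Ncs1 counts were on Ncs1-201, and Hpcal4-201 held 98.5% of Hpcal4 on average. The remaining genes were Ncald, Necab1, Calb1 and Hpca.

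Ncald had 11 annotated transcripts, and which led depended on the scale. Ncald-202, a short form of 858 bases with a 3′ UTR of 204 bases, took 42.45% of the gene's TPM in replicate 1 and 47.93% in replicate 2. Ncald-203, of 3295 bases with a 3′ UTR of 2561 bases, took 30.81% and 27.01%. By counts the order was turned: Ncald-203 held 2362.49 and 2420.08 counts and Ncald-202 held 773.08 and 1019.85. Ncald-211 held 8.16% and 6.76% of the TPM and Ncald-208 held 7.11% and 7.85%. The 5 transcripts that encode the same 579 bases together held 88.2% and 86.0% of the summed TPM of the 11 transcripts, a total slightly below the gene's own TPM. Transcripts that start between 37458541 and 37459360 on chromosome 15 held 73.3% and 79.6% of the transcript counts. Those that start at the far upstream end, between 37792000 and 37792570, held 24.0% and 17.5%, and those between 37734370 and 37734634 held 2.73% and 2.90%.

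Necab1 was split between Necab1-201, of 4922 bases, and Necab1-202, of 2135 bases, which have the same coding sequence. Necab1-201 was at 579.70 and 534.89 counts. Necab1-202 was at 199.08 counts in replicate 1 and 45.11 in replicate 2, or 43.27% and 16.65% of the gene's TPM. The difference between areas in the Necab1 level therefore lay mostly in the short form: by TPM Necab1-201 was at 7.01 and 6.66, and Necab1-202 at 5.71 and 1.33. The estimated length of the gene moved with this, from 3461 bases in replicate 1 to 4359 in replicate 2.

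Hpca and the short transcripts of Calb1 rested on few reads. The only coding transcript of Calb1, Calb1-201, was at 4.02 and 5.00 TPM, a mean of 4.51 ± 0.693 TPM. It held 283.98 and 343.31 of the counts but 58.83% and 63.34% of the TPM. The rest of the Calb1 level was on short transcripts with a retained intron: Calb1-202 at 41.17% and 21.86%, from 29.02 and 17.30 counts, and Calb1-203 at 0% and 14.80%. For Hpca, Hpca-201 was at 82.43% and 45.91%, Hpca-207 at 0% and 54.09%, and Hpca-204 at 17.57% and 0%. These Hpca shares came from 41.26 and 19.51, 0 and 11.49, and 10.74 and 0 counts, and all 3 transcripts encode the same protein. At this depth the Hpca isoforms were not resolved.

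**Figure D3:**
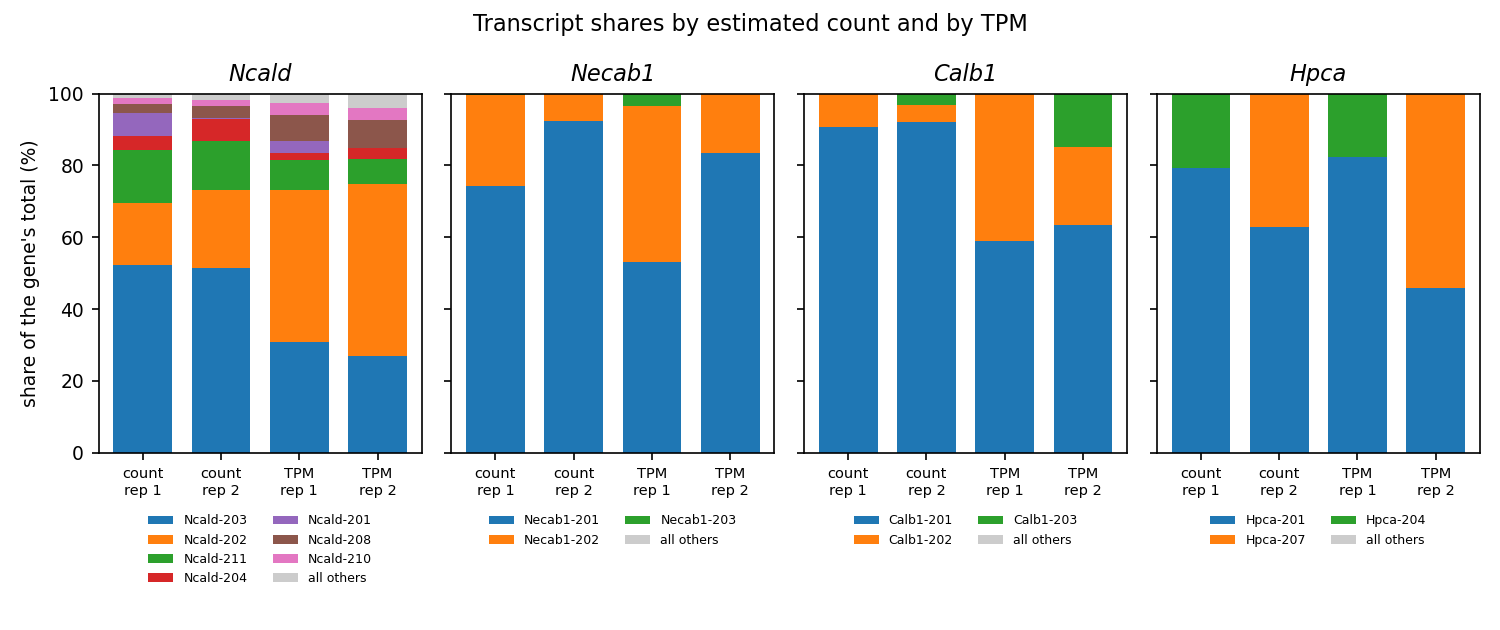
Share of a gene's total held by each transcript, in percent, for Ncald, Necab1, Calb1 and Hpca, by expected count and by TPM in replicates 1 and 2. Ncald-203 leads by count and Ncald-202 by TPM, and Necab1-202 holds 43.27% of the TPM in replicate 1 and 16.65% in replicate 2.

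The areas were then compared gene by gene, to see which of the 10 levels differed between them by more than counting error. A two-sided exact binomial test was run on rounded counts against the library totals, with Benjamini-Hochberg adjustment over all 16479 genes tested. It compares these 2 libraries and not conditions, and it takes reads as independent, which amplified reads are not. Of all genes tested, 7862 (47.7%) passed at an adjusted p of 0.05, and 8 of the 10 genes did. A pass is thus common over the whole table, and a gene with many counts passes at a small difference, so the size is given with each.

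Calb2, Vsnl1, Hpcal1, Calb1 and Ncald passed with higher counts in replicate 2. The log2 ratio of counts, replicate 2 over replicate 1, was 0.63 for Calb2 (95% exact interval 0.52 to 0.74, adjusted p = 4.74e-28), a fold of 1.54. It was 0.39 for Vsnl1 (0.36 to 0.43, adjusted p = 8.87e-107 by the exact test) and 0.38 for Hpcal1 (0.32 to 0.44, adjusted p = 7.19e-35 by the exact test). Calb1 was at 0.30 (0.08 to 0.53, adjusted p = 0.0153 by the exact test). Ncald was at 0.11 (0.05 to 0.17, adjusted p = 7.10e-04 by the exact test), which is a fold of 1.08 by count. The Calb2 difference in TPM was larger than that of 89.4% of the 13150 genes with a mean of at least 1 TPM.

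Hpcal4, Necab1 and Ncs1 passed with higher counts in replicate 1. Hpcal4 was at -0.45 (-0.72 to -0.17, adjusted p = 0.00358 by the exact test) and Necab1 at -0.38 (-0.54 to -0.22, adjusted p = 1.08e-05 by the exact test). The Necab1 fold was 1.30 by count and 1.65 by TPM, and its TPM difference was larger than that of 91.1% of genes. Ncs1 was at -0.11 (-0.21 to -0.01), with an adjusted p of 0.0483 by the exact test, which became 0.0521 with median-of-ratios scaling and 0.119 with no filter on low counts. Pvalb at -0.05 (-0.24 to 0.13, adjusted p = 0.706 by the exact test) and Hpca at -0.69 (-1.39 to -0.03, adjusted p = 0.0716 by the exact test) did not pass. For Hpca the interval is wide, and a difference was not detectable at this depth after adjustment. The Hpca fold was 1.62 by count and 1.15 by TPM.

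When counts were divided by 10 to allow for amplified copies, 3 of the 10 genes passed, namely Vsnl1, Hpcal1 and Calb2. Of all 16479 genes tested, 115 passed. The factor of 10 was set and not estimated from these data, and a gene with many counts still passes more easily. The median absolute log2 ratio of TPM + 1 was 0.29 over the 10 genes and 0.20 over the genes with a mean of at least 1 TPM. The summed level of the 10 genes was 811 TPM in replicate 1 and 1020 TPM in replicate 2, and Vsnl1 made up the largest share of that difference.

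**Figure D4:**
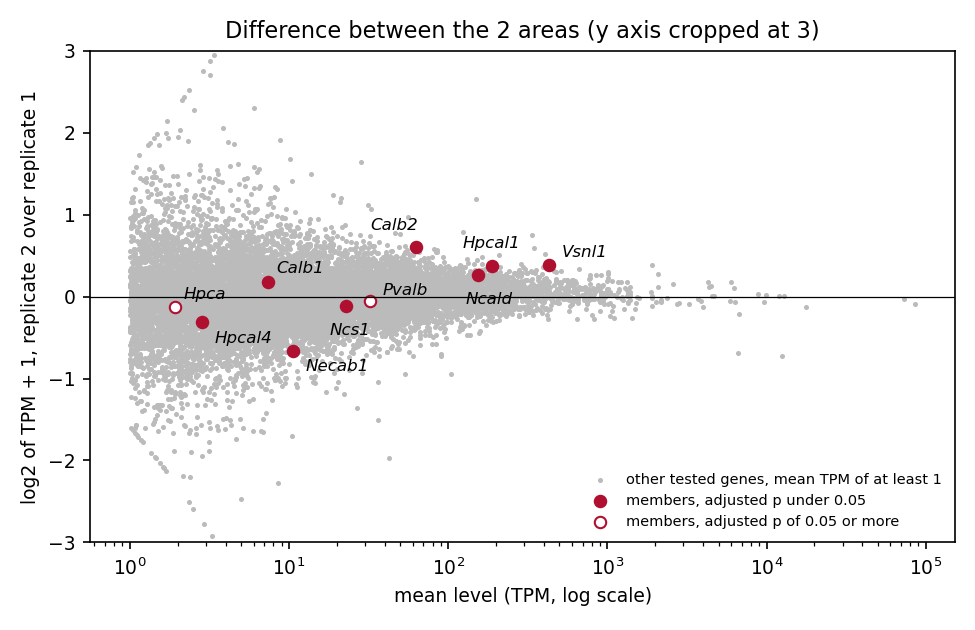
Log2 ratio of TPM + 1, replicate 2 over replicate 1, against the mean level in TPM on a log axis, for tested genes with a mean of at least 1 TPM in grey and the 10 genes in red. Filled points passed the exact binomial test and open points, Pvalb and Hpca, did not; Calb2 lies high and Necab1 low within the grey cloud.

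Cell type markers were read beside these differences. By the exact test, which 47.7% of all genes passed, 5 of 8 granule neuron markers and 7 of 8 oligodendrocyte markers passed with higher counts in replicate 2, and none of either passed the other way. Markers passed mostly with higher counts in replicate 1 for red blood cells (5 of 5) and microglia (6 of 8, and 1 the other way). So did endothelial and mural cell markers (5 of 8, and 2 the other way). For Bergmann glia and astrocytes it was 4 of the 7 tested, and 1 the other way. The same held for Golgi and inhibitory neurons (4 of 8, and 2 the other way), unipolar brush cells (4 of 6, and 2 the other way) and molecular layer interneurons (3 of 6, and 0 the other way). Purkinje cell markers were divided, with 3 of 10 higher in replicate 2 and 4 higher in replicate 1. Summed granule neuron markers (Gabra6, Neurod1 and Etv1 the highest) were at 2212 TPM in replicate 1 and 2440 TPM in replicate 2, with 8 of 8 detected. Purkinje cell markers were at 427 and 484 TPM with 7 of 10 detected. The Purkinje genes did not move together: Pcp2 was at 91.08 and 158.07 TPM, Gng13 at 140.29 and 184.99, and Pcp4 at 112.84 and 68.85. Golgi and inhibitory neuron markers were at 53.5 and 37.3 TPM with 6 of 8 detected, led by Gad1 at 20.87 and 18.31, Lgi2 at 13.12 and 8.24 and Gad2 at 7.47 and 4.07. Unipolar brush cell markers, 3 of 6 detected, were at 190 and 192 TPM, mostly from Plcb4 at 164.81 and 167.60, with Eomes at 6.08 and 3.99. Beside these, Calb2 was higher in replicate 2 while Eomes was lower, and Lmx1a had 31 and 0 counts.

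Molecular layer interneuron markers were low, at a sum of 10.1 and 7.94 TPM with 2 of 6 detected (Cxcl14, Tfap2b and Kit the highest), beside Pvalb at 33.10 and 31.72 TPM. Of the remaining lists, oligodendrocyte markers (among them Mbp and Mobp) were at 590 and 726 TPM, Bergmann glia and astrocyte markers (Aldoc, Sparcl1, Gja1) at 629 and 605, and microglia markers (among them Ctss and Tyrobp) at 129 and 97.3. Endothelial and mural markers (Ly6c1, Rgs5, Vtn) were at 189 and 177 TPM, and red blood cell markers (Hba-a2, Hbb-bs, Hba-a1) at 5040 and 390 TPM. No marker was at 0 counts in both libraries. Their part in the levels of the 10 genes was not tested.

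To place the 10 genes among their relatives, 56 other EF-hand genes in 6 lists were read in the same way, and 33 were detected in both areas. The 7 other genes of the sensor family had a median of 0.745 TPM, with 3 detected. They were Kcnip4, a partner of Kv4 potassium channels, at 121.74 and 124.15 TPM, Kcnip3 at 8.98 and 11.09, and Kcnip1 at 4.30 and 16.01. Kcnip1 had 134 and 475 counts (adjusted p = 5.76e-46 by the exact test), a wider difference than any of the 10 genes showed. Guca1a, a sensor of photoreceptors, had 0 counts in both. In this list 5 genes were tested, and 2 passed higher in replicate 2 and 2 higher in replicate 1. Over all genes tested, 47.7% passed.

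The list of other NECAB and CaBP genes had 4 of 9 detected and a median of 0.665 TPM. It was led by Caln1, which encodes calneuron 1, at 165.33 and 184.08 TPM. Cabp2 was at 16.68 and 13.09 TPM, Cabp1 at 8.84 and 9.88 and Necab3 at 2.57 and 5.33, while Cabp5 and Calml4 had 0 counts in both. The other buffers had 2 of 5 detected, Efhd2 at 15.50 and 14.49 TPM and Efhd1 at 8.22 and 7.32. Secretagogin (Scgn) and oncomodulin (Ocm), a relative of parvalbumin, had 0 counts in both libraries. No buffer of this list passed the exact test, where 2 of the 5 were tested. In the NECAB and CaBP list 5 genes were tested and 2 passed, both higher in replicate 2, beside 47.7% of all genes tested.

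S100 genes, which encode small EF-hand proteins that form dimers, had 7 of 12 detected and a median of 17.5 TPM. S100a1 was at 145.76 and 129.75 TPM, S100b, an astrocyte marker, at 118.87 and 119.24, S100a16 at 101.20 and 108.92 and S100a10 at 42.33 and 65.56. S100a5, S100a8 and S100a9 had 0 counts in both. Of the other cytosolic EF-hand genes, 14 of 18 were detected, with a median of 31.2 TPM. Cetn3 was at 255.74 and 264.06 TPM, sorcin (Sri) at 199.58 and 233.09, the calcineurin subunit Ppp3r1 at 205.72 and 221.28 and tescalcin (Tesc) at 183.00 and 220.16. Ppp3r2, the testis form of that subunit, and Cib3 had 0 counts in both. The CREC genes of the secretory pathway had 3 of 5 detected and a median of 20.6 TPM, with Sdf4 at 71.67 and 63.37 TPM, Rcn2 at 52.29 and 53.79 and Calu at 20.84 and 20.33. By the exact test, which 47.7% of all genes passed, 3 of 7 tested S100 genes were higher in replicate 2 and 1 in replicate 1. Of 15 tested cytosolic genes, 6 passed higher in replicate 2 and 2 higher in replicate 1. Of 5 tested CREC genes 1 passed, higher in replicate 2. Of all these relatives, none reached the level of Vsnl1, and Cetn3, Sri, Ppp3r1 and Tesc lay between Vsnl1 and Hpcal1 by mean level.

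**Figure D5:**
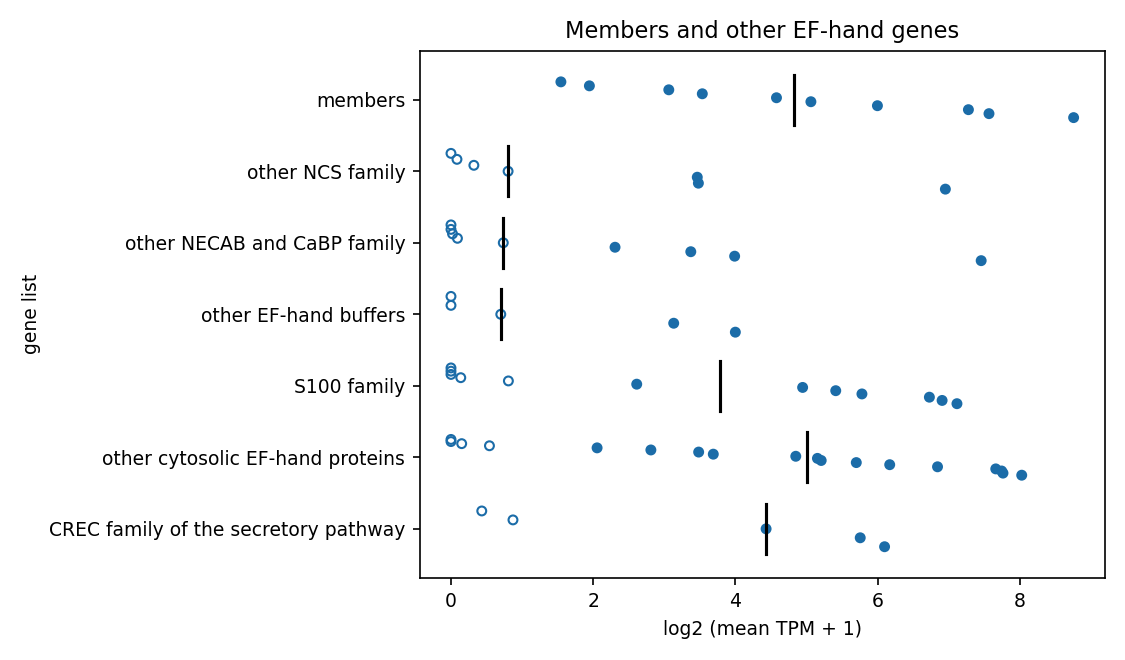
Mean level of each gene as log2 of mean TPM + 1, by list, with filled points for genes detected in both areas, open points for the rest and a vertical bar at the list's median. The 10 genes are all filled and hold the rightmost point, Vsnl1, while the other sensor, NECAB and CaBP, and buffer lists have medians from 0.625 to 0.745 TPM.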

How the data were processed

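Per the file headers, the deposited gene and transcript tables hold expected counts, which are estimates that share reads among features, and TPM and FPKM values normalized by the authors for length and library total. The deposited score columns hold a posterior SD of the count and bounds on TPM whose level is not stated, and the deposited percent column is the share of a gene held by a transcript. Per the deposited notes, reads were assigned on mm10 with GENCODE M4. The sources used here do not state the aligner, the counting program or whether strand was used. Names, types, coordinates and sequences came from GENCODE M21 on GRCm38, and 42462 of 43346 Ensembl gene IDs matched; the rest, 0.432% and 0.435% of counts, were left out, as were spike-in rows.

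The members and the lists were chosen with earlier results of these data known. Levels are TPM in each library with mean and SD (n = 2). Counts were rounded for the exact binomial test on genes with a summed count of at least 10, with Benjamini-Hochberg adjustment, and log2 ratios of TPM used a pseudocount of 1. The binomial script was checked on simulated counts. With 2 libraries in 1 group no permutation test can pass 0.05. Intervals and floors cover counting error only. The text names all 10 members, the 4 highest detected genes and those at 0 counts of each EF-hand list, the 3 highest markers of each list (some are not reported here), and transcripts with a mean share of at least 5%; Lmx1a, Gm28221, Gm11837, Tmem54 and Pvalb-202 were named after their values were seen.

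A comparison of protein sequences had been planned, and coding sequences were compared in its place, aligned globally (match 2, mismatch -1, gap opening -5, gap extension -1). Alternatives were FPKM, posterior mean TPM, TPM over nuclear protein-coding genes, CPM, TMM and median-of-ratios scaling, other pseudocounts, filters and detection minimums, counts divided by 10, and each library left out. Tools were Python 3.11.15, pandas 2.3.3, numpy 2.4.6, scipy 1.17.1, Biopython 1.88, matplotlib 3.10.9, R 4.3.3, edgeR 4.0.16 for TMM factors and DESeq2 1.42.0 for size factors.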

Additional observations from a re-analysis of the deposited data

How the results depend on the processing

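The 10 genes were detected, and their order by level held, with either library left out. At a minimum of 5 TPM 8 were detected, without Hpcal4 and Hpca. Their median level, 27.6 TPM, was 26.8 to 28.5 TPM with 1 library left out and 27.0 with posterior mean estimates. It was 29.5 with FPKM rescaled over annotated genes and 46.6 with TPM over nuclear protein-coding genes, since fewer rows then share the total. Of the 10 genes 8 passed the exact binomial test, and 7862 of the 16479 genes tested. Of the same sets, 8 and 7862 passed with TMM scaling and 7 and 7869 with median-of-ratios scaling. With no filter all 42462 annotated genes were tested, a larger set, and 7 and 6936 passed. Ncs1 was the gene lost in both settings with 7. With counts divided by 10, 3 of the 10 and 115 of the 16479 passed, as fewer counts give wider intervals. No direction was reversed in these alternatives. The number of genes with 1 transcript of at least 90% was 5 with posterior means and 6 otherwise. With posterior means the share of Hpcal4-201 fell from 98.5% to 76.9% and that of Pvalb-201 from 100% to 92.2%. The mean levels of the 2 lowest genes rose, from 2.855 to 3.475 TPM for Hpcal4 and from 1.92 to 2.545 TPM for Hpca. Detected EF-hand genes, 43 of the members and relatives together, were 36 at 5 TPM, 47 at 0.1 TPM, and 43 to 45 with 1 library left out. No paired analysis was possible because there is 1 group. Depth limits Hpca and its transcripts most.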

Other observations

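Some relatives outside the naming rule were looked up after their values were seen. Kcnip2, a channel partner of the sensor family, had 19 counts in replicate 1 and 0 in replicate 2. Guca1b, a sensor of photoreceptors, had 32 and 7 counts. Necab2, of the same family as Necab1, had 1 and 0 counts, against 782 and 580 for Necab1. Capn1, a calpain protease, was at 0.65 and 0.26 TPM, while its relative Capn2 was at 11.42 and 12.38 TPM.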
